A study of Rattus norvegicus with 29 samples.

Results

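The miR-23, miR-24 and miR-27 clusters are 2 paralogous groups of miRNA genes. Their mature products were picked by name from a table of plasma miRNA counts, as every row whose stem, once the species prefix is dropped, is miR-23a, miR-23b, miR-24, miR-27a or miR-27b, whatever the copy or arm. The rule gave 11 of 754 rows, 5 of them 3p arms and 6 of them 5p arms, and all 11 were among the 751 rows that passed the filter on low counts. Blood was taken 48 h after surgery from the tail vein of 29 adult male Sprague-Dawley rats under isoflurane, into EDTA tubes, and each rat gave 1 small RNA library from its plasma. The study ran at the University of Eastern Finland (UEF, 12 rats), Monash University (Monash, 8 rats) and UCLA (9 rats), and asked whether plasma miRNAs mark injury or later epilepsy and whether the 3 sites give like values. TBI rats received a lateral fluid-percussion brain injury, while sham rats had the same anaesthesia and surgery without the impact. Injured rats were grouped as TBI+ where video-EEG in the seventh month showed epilepsy and as TBI- where it did not. There were 10 sham, 10 TBI- and 9 TBI+ rats, of which UEF held 4, 4 and 4, Monash 3, 3 and 2, and UCLA 3, 3 and 3.

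The miR-23, miR-27 and miR-24 hairpins of a cluster are cut from a shared primary transcript, and each hairpin can give a mature miRNA from either arm. A mature miRNA finds its targets mainly through the seed, a run of bases near its 5′ end, so that products with a shared seed have overlapping target sets. The clusters are known for their work in endothelial, muscle and blood cells, and miR-23a-3p is in common use as the stable side of a plasma haemolysis ratio, against the red cell miRNA miR-451.

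Mature sequences came from RefSeq (build GRCr8), where 10 of the 11 names had an entry and rno-miR-23a-5p had none. The seed, bases 2 to 8, is in capitals. The 3p arms are shown because they hold nearly all of the counts, in the order of their shared seeds:
rno-miR-23a-3p: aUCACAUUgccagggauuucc
rno-miR-23b-3p: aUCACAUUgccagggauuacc
rno-miR-27a-3p: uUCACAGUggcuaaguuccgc
rno-miR-27b-3p: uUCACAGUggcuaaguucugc
rno-miR-24-3p: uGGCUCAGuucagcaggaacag
The paralogs rno-miR-23a-3p and rno-miR-23b-3p share all but 1 of 21 bases, U19A, with the base of the former first and positions counted from 1 at the 5′ end. rno-miR-27a-3p and rno-miR-27b-3p likewise differ by C19U alone. A read that ends before that base, or carries an error there, fits both paralogs, so their separate counts are uncertain where the counting could have split such reads. rno-miR-24-3p has the same sequence in both clusters, and its row pools both sources.

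The 5p arms separate the gene copies. Shown here are the 2 miR-24 copies, which share a seed, the miR-27a arm, whose UEF values are given, and the miR-27b arm that is set against its 3p partner, with miR-451-5p as the red cell side of the haemolysis ratio:
rno-miR-24-1-5p: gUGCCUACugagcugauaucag
rno-miR-24-2-5p: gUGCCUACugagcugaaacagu
rno-miR-27a-5p: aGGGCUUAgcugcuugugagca
rno-miR-27b-5p: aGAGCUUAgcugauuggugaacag
rno-miR-451-5p: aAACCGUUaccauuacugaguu
rno-miR-24-1-5p and rno-miR-24-2-5p share their seed and their first 16 bases, and differ by U17A, U19C, C20A, A21G and G22U. The seeds fall into 3 pairs among the 10 sequences (both miR-23 3p arms, both miR-27 3p arms and both miR-24 5p arms) and 4 seeds held by 1 member each. Of the 674 table names with a RefSeq entry, 0 outside the members had any of these 7 seeds.

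In GRCr8, Mir23b, Mir27b and Mir24-1 lie in this order on the minus strand of chromosome 17, between positions 1818669 and 1819482. Mir23a, Mir27a and Mir24-2 lie on the minus strand of chromosome 19, between positions 40859455 and 40859843. The first cluster spans 814 bases inside the gene models of Fancc and Aopep, and the second spans 389 bases between the coding genes Zswim4 and Nanos3.

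Depth was the sum of miRNA counts, which ran from 1162307 to 5223469 per rat with a median of 2713557. Levels are given as CPM, counts scaled to a common library total, with edgeR's TMM factors, which rescale each rat's total, and plain CPM is the same without those factors. The rat UEF sham 3 stood apart before any result on the members. Its total was the highest of the 29 and its TMM factor the lowest (0.333), and the liver miRNA miR-122-5p held 55.1% of its counts. Its TMM-scaled CPM values are raised 3-fold over plain CPM.

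The 3p arms were the abundant products. rno-miR-23a-3p ranged from 4421 to 16368 CPM over the 29 rats, with a median of 8661, and ranked 20 of 751 miRNAs by median level. rno-miR-24-3p ranged from 3709 to 13033 CPM with a median of 6339 (rank 27). It was above miR-23a-3p in 2 rats, UEF sham 4 and UEF TBI+ 4, and below it in the other 27, so these neighbours overlapped widely in level while keeping their order inside nearly every rat. Counts of miR-24-3p came to 75.9 ± 10.97 per 100 counts of miR-23a-3p (mean ± SD, n = 29).

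rno-miR-27b-3p, known from vessel and muscle biology, had a median of 2238 CPM (1015 to 7877, rank 45). rno-miR-27a-3p, its paralog from the other cluster, had a median of 1194 CPM (571 to 2519.9, rank 61). rno-miR-23b-3p was the lowest 3p arm, with a median of 843 CPM (268 to 1867, rank 69). The order miR-27b-3p over miR-27a-3p over miR-23b-3p held in all 29 rats by their own counts. By read counts, the clusters thus differed in which paralog led. The miR-23 product of the chromosome 19 cluster was above that of chromosome 17. For miR-27 the product of chromosome 17 was above that of chromosome 19. The part of reads that fit both paralogs, and of the library amplification bias that the paper names, was not tested.

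Each of the 5p arms was below all of the 3p arms in all 29 rats. rno-miR-23a-5p had a median of 155 CPM (55.3 to 638, rank 152) and was the only 5p arm above the others in every rat. rno-miR-24-2-5p had a median of 33.5 CPM, rno-miR-27a-5p 27.9, rno-miR-27b-5p 22.4, rno-miR-23b-5p 15.5 and rno-miR-24-1-5p 13.2. Neighbours in this lower group changed places from rat to rat: each was above the next in 16, 18, 23 and 21 of 29 rats, so their order did not exceed the spread. Counts were low there, with 9 to 136 counts of miR-24-1-5p in a rat and 1 rat under 10. The 11 members together took 1.28 to 2.87% of a rat's miRNA counts (median 2.02%), and 98.5% of their counts were in 3p arms.

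**Figure D1:**
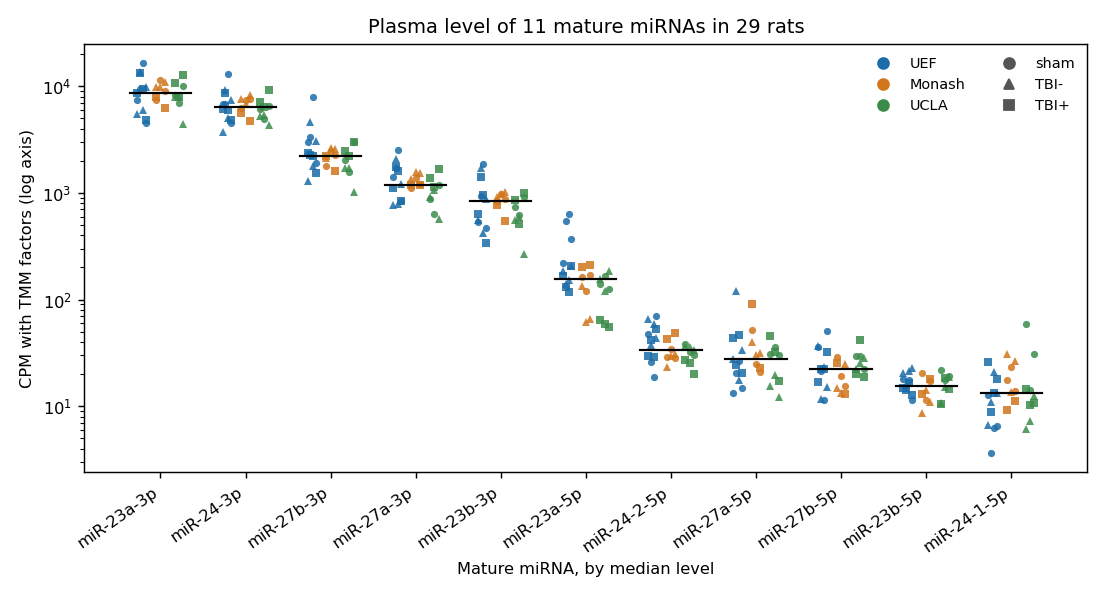
CPM with TMM factors (log axis) of each of the 11 members in each of 29 rats, coloured by site and shaped by outcome, with the median as a black line. The 5 miRNAs on the left are the 3p arms, with medians from 8661 down to 843, and the 5p arms follow from 155 down to 13.2.

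Spread between rats was measured as the SD of log2 CPM. Over all 751 miRNAs the median SD was 0.63, and it was 0.39 for miR-24-3p, 0.47 for miR-23a-3p, 0.49 for miR-27a-3p, 0.56 for miR-27b-3p and 0.63 for miR-23b-3p. From the steadiest up, miR-24-3p ranked 46 of 751 and miR-23a-3p lay at the percentile 19.2, beside rank 104 for miR-28-3p. The scaling decided much of this order: with plain CPM, miR-24-3p ranked 4, miR-23a-3p 16, miR-27b-3p 18, miR-27a-3p 22 and miR-28-3p 1. The last of these is the reference that the paper chose from earlier work and also reports as stable in these samples. Neither its rank nor scaling to it is thus an independent check. Among the 5p arms, miR-23b-5p had the lowest SD (0.34, rank 22, or rank 179 with plain CPM), and miR-23a-5p the highest (0.84, rank 592). With plain CPM miR-24-1-5p was the highest (0.98, against 0.91 for miR-23a-5p), as also with TMM without UEF sham 3 (0.80 against 0.75). No test was made of these ranks.

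Over all sites, 0 of 11 members differed between TBI and sham rats in edgeR's quasi-likelihood F test after Benjamini-Hochberg adjustment over 751 miRNAs (threshold 0.05), beside 10 of 751 miRNAs (1.33%). At an unadjusted p under 0.05 there was 1 member, beside 84 of all miRNAs, and DESeq2 called 1 member, miR-23a-5p, and 25 miRNAs in all. The median log2 fold change of the members was -0.17, against 0.03 over all tested, and 9 of 11 members were below 0, or 7 to 9 across the 6 scalings compared. The abundant reference miR-23a-3p had a log2 fold change of -0.04 (95% interval -0.46 to 0.37), with a sign that changed with the scaling (-0.08 to 0.06). For miR-24-3p it was -0.12 (-0.49 to 0.24), below 0 under all 6 scalings.

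The 5p arm of miR-23a lay nearest to a call. In sham rats it ranged from 120.1 to 638 CPM with a median of 169, in TBI- rats from 61.9 to 207.8 with a median of 148, and in TBI+ rats from 55.3 to 209 with a median of 131. The 3 ranges overlapped, and the high end of the sham rats was made by UEF. Against sham, TBI gave a log2 fold change of -0.80 (SE 0.24; adjusted p = 0.0764 in edgeR), the TBI mean was 52.0% of the sham mean, and 13 of 19 TBI rats were below the sham median. The result depended on single rats: edgeR's adjusted p was 0.0454 without Monash TBI+ 1, 0.0486 without Monash TBI+ 2 and 0.0411 without UCLA TBI- 3, and it rose to 0.256 without UEF sham 2. It was 0.0150 by DESeq2, and the range over edgeR and DESeq2 alternatives was 0.0150 to 0.976.

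At UEF, miR-23a-5p stood at 218, 547, 638 and 368 CPM in the 4 sham rats. In the 8 UEF TBI rats it ranged from 117 to 207.8 CPM, with a median of 161. Every UEF sham rat was thus above every UEF TBI rat, and the TBI mean was 37.0% of the sham mean. Of the 11 members, 1 had groups that did not overlap, beside 23 of all 751 miRNAs (3.06%), 10 of them lower in TBI rats. The fold change at UEF was -1.43 on the log2 scale (SE 0.33, 95% interval -2.11 to -0.75), with an adjusted p of 0.00798 in edgeR and 5.4e-04 in DESeq2, and miR-23a-5p was the 1 member called of 11 in this contrast, beside 29 of 751 miRNAs (3.86%).

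That call rested on the scaling and on 2 sham rats. Without UEF sham 2 the log2 fold change was -1.17 and edgeR's adjusted p 0.109, and without UEF sham 3 they were -1.14 and 0.150. With plain CPM the UEF sham rats had 226, 446, 213 and 432 CPM and the UEF TBI rats 91.0 to 363.1 CPM, so that the groups overlapped. Under plain CPM the log2 value was -0.79 (adjusted p = 0.354 in edgeR), and with counts scaled to miR-28-3p it was -0.87 (adjusted p = 0.293 in edgeR), within a range over all alternatives of 5.4e-04 to 0.459. These 2 scalings moved the median log2 fold change of all miRNAs at UEF by 0.42 and 0.33, and plain CPM without UEF sham 3 by 0.16. They also turned the split of all UEF calls, from 10 higher and 19 lower to 40 and 8 (plain CPM) or 31 and 10 (miR-28-3p). Relative to the median of all miRNAs, miR-23a-5p lay between -1.49 and -1.12 under the 6 scalings, below 0 in each. A change of scaling moves all miRNAs largely together, so these relative values had to stay close. They are no test of the scaling and do not restore the call.

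The counts of the same hairpin's arms can be set against each other without any scaling. In UEF sham rats there were 5.22 ± 2.32 counts of miR-23a-5p per 100 of miR-23a-3p (n = 4), and in UEF TBI rats 2.20 ± 1.17 (n = 8). The ranges, 2.95 to 8.21 and 0.991 to 4.25, overlapped. At Monash the same share was 1.73 ± 0.60 in sham (n = 3) and 1.70 ± 1.22 in TBI rats (n = 5), and at UCLA 1.77 ± 0.59 (n = 3) and 1.57 ± 1.397 (n = 6). The UEF sham rats had the highest mean, and the sham rats of the other sites lay within the range of the injured rats.

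miRNAs of other tissues moved in the same rats. A list of 8 liver rows (stems miR-122, miR-192, miR-194 and miR-802), with miR-122-5p as its most abundant row at 92.8% of the list, held a median of 41.1% of all counts in UEF sham rats (30.8 to 58.0%) and 7.19% in UEF TBI rats (1.99 to 24.5%). Of its 8 rows, 7 were called lower at UEF by edgeR, with a median log2 fold change of -1.81, and 0 of the 8 were at a count of 0 in any rat. A list of 14 red cell rows, led by miR-16-5p, had a median log2 fold change of 0.52 at UEF with 2 rows called higher. For 7 vessel wall rows, led by miR-143-3p, the median at UEF was -0.67, with 2 rows above 0 and 0 called. The part of these lists in the values of miR-23a-5p was not tested, and in plasma fewer cells that shed a miRNA and less of it per cell cannot be told apart.

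At UEF the other members were not called by edgeR with TMM factors. With miR-451-5p as a covariate, edgeR called 88 of 751 miRNAs at UEF, against 29 without it, and 3 members. These were miR-23a-5p, miR-27b-3p (log2 fold change -1.16, adjusted p in edgeR = 0.00389) and miR-27a-3p (-0.73, adjusted p in edgeR = 0.0463, within 0.0463 to 0.9999 over its alternatives). The 3p arms had log2 fold changes from -0.75 (miR-27b-3p, SE 0.34; adjusted p = 0.263 in edgeR, 0.00389 to 0.986 over the alternatives) to -0.08 (miR-23a-3p). For 4 of the 5, all but miR-27b-3p, the sign turned positive under 3 of 6 scalings. For miR-27b-3p the UEF sham rats had 3035, 3357, 7877 and 1919 CPM and the UEF TBI rats 1304 to 4636 CPM with a median of 2254, of which 7 of 8 were below the sham median, and without UEF sham 3 the adjusted p in edgeR was 0.968. rno-miR-27a-5p went the other way from miR-23a-5p, at 13.2, 20.3, 26.4 and 14.8 CPM in UEF sham rats and 17.5 to 121 CPM in UEF TBI rats. Its TBI mean was 224% of the sham mean and 7 of 8 TBI rats were above the sham median, for a log2 fold change of 1.17 (SE 0.46; adjusted p = 0.182 in edgeR). With plain CPM all 8 UEF TBI rats were above all 4 sham rats, as for 23 of 751 miRNAs, with 8 others separated the other way. The fold change was above 0 under all 6 scalings, and past the threshold in edgeR with plain CPM (adjusted p = 0.0345) and scaled to miR-28-3p (0.0462), within 0.0345 to 0.468 over the alternatives.

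At Monash 0 of 11 members were called by edgeR, as were 0 of 751 miRNAs (0%), with 0 members and 56 miRNAs at an unadjusted p under 0.05 and 5 miRNAs by DESeq2, none of them a member. All 11 log2 fold changes there lay between -0.33 and 0.39. At UCLA 0 of 11 members were called by edgeR, beside 2 of 751 miRNAs (0.266%), with 1 member and 85 miRNAs at an unadjusted p under 0.05. DESeq2 called 7 miRNAs at UCLA, of which 1 was a member, miR-24-1-5p. Groups did not overlap for 0 of 11 members at Monash (2% of all miRNAs) or at UCLA (5.99%). At UCLA plain CPM gave another picture, in which 7 members were lower in each of the 6 TBI rats than in each of the 3 sham rats. Plain CPM separated 74 of 751 miRNAs there (9.85%), 70 of them lower, and it had moved the median of all miRNAs by -0.49. Scaling to miR-28-3p moved that median by -0.33, and all 11 members were below 0 at UCLA under these scalings, against 8 with TMM. Of the calls over all miRNAs at UCLA, 1 was higher and 8 were lower with plain CPM, against 1 and 1 with TMM. At Monash plain CPM moved the median of all miRNAs by 0.13.

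**Figure D2:**
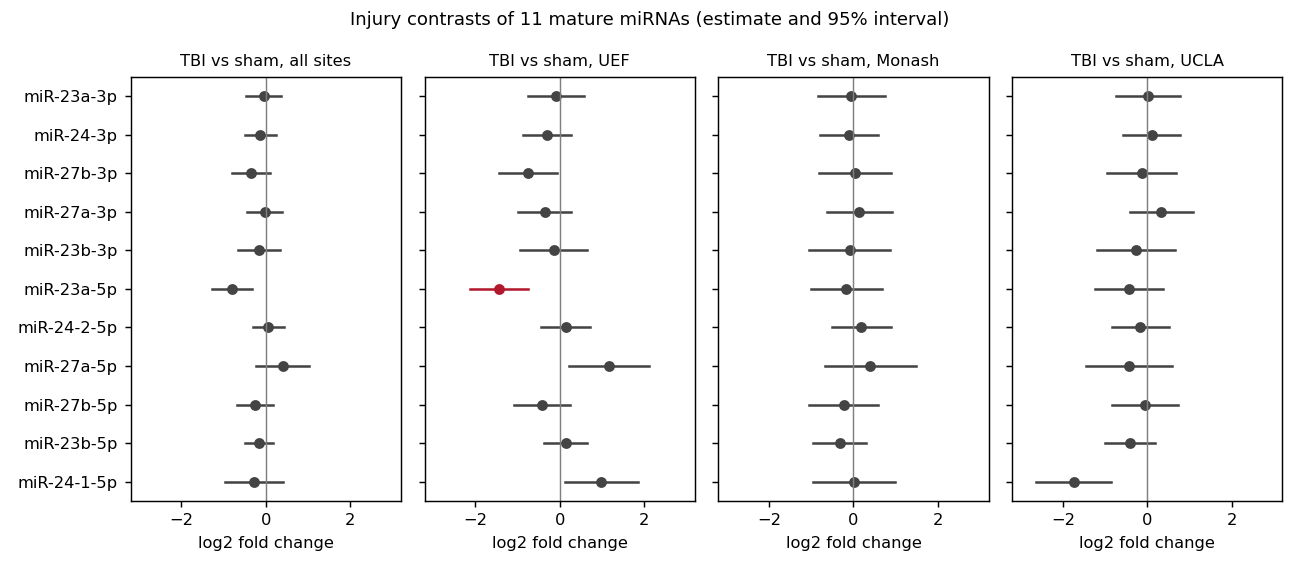
Log2 fold change of TBI against sham with its 95% interval for the 11 members, over all sites and at each site, from edgeR with TMM factors. The red point, miR-23a-5p at UEF (-1.43), is the call past the adjusted threshold of 0.05, a call lost with plain CPM, and miR-24-1-5p lies on opposite sides of 0 at UEF (0.99) and UCLA (-1.75).

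The member whose injury contrast differed between sites was miR-24-1-5p, a product of the chromosome 17 cluster alone, as are both arms of miR-23b and miR-27b. In UEF sham rats it stood at 12.8, 3.66, 6.32 and 6.58 CPM (36, 9, 11 and 16 counts), and in the 8 UEF TBI rats it ranged from 6.60 to 26.1 CPM with a median of 13.3. In UCLA sham rats it stood at 58.8, 14.3 and 30.6 CPM (136, 30 and 95 counts), and in the 6 UCLA TBI rats it ranged from 6.15 to 14.4 CPM with a median of 10.5. All 8 UEF TBI rats were above the UEF sham median and all 6 UCLA TBI rats were below the UCLA sham median, though the groups overlapped at both sites. With plain CPM they overlapped at UEF but not at UCLA, where the sham rats had 20.4 to 66.8 CPM and the TBI rats at most 14.8 CPM, as part of the 9.85% of all miRNAs separated there under that scaling. At Monash the sham rats had 17.7, 23.1 and 13.8 CPM and the TBI rats 31.0, 13.6, 26.4, 9.22 and 11.3 CPM, with sham inside the range of TBI.

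On the log2 scale, the injury contrast of miR-24-1-5p was 0.99 in UEF rats (SE 0.42, adjusted p = 0.221 in edgeR) and 0.00 in Monash rats (SE 0.47). In UCLA rats it was -1.75 (SE 0.43, adjusted p = 0.0675 in edgeR, 0.00998 to 0.452 over the alternatives). The interaction of site and injury, on 2 degrees of freedom, tested the difference between the 3 sites. It gave an adjusted p of 0.0464 in edgeR and 0.00433 in DESeq2, and 0.00433 to 0.247 over the alternatives. miR-24-1-5p was the 1 member called of 11 by edgeR in this test, beside 8 of 751 miRNAs (1.07%). All 6 scalings kept the sign in UEF rats and in UCLA rats, and the Monash sign turned in 3 of 6. Other lists moved at UCLA too, by differences of mean log2 CPM between TBI and sham rats: 13 of 14 red cell rows were above 0 (median 0.69) and 6 of 6 white cell and platelet rows (0.73), but 0 of 7 vessel wall rows (-0.74). With plain CPM these were 11, 4 and 0 rows, with medians of 0.17, 0.21 and -1.26. Over all miRNAs the median of the same difference at UCLA was -0.01 with TMM and -0.51 with plain CPM. The part of these lists in the values of miR-24-1-5p was not tested.

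The interaction lay close to the threshold. It was not called with DESeq2's RLE scaling factors (adjusted p in edgeR = 0.0521) or with a replicate block (0.0849). edgeR's adjusted p was at or above 0.05 in 23 of the 29 fits that each left out 1 rat, and it reached 0.247 without UCLA sham 1, 0.136 without UEF sham 3 and 0.113 without UEF sham 2. The call held without UEF sham 1 (0.0177), and also without UEF TBI- 1, UEF TBI- 4, Monash sham 2, Monash TBI+ 1 or UCLA sham 2. At UCLA alone the adjusted p was 0.0143 without UCLA sham 2 and 0.452 without UCLA sham 1, and at UEF alone it was 0.0495 without UEF sham 1. For miR-23a-5p the same interaction was not past the threshold (adjusted p in edgeR = 0.368), so its call at UEF beside none at Monash or UCLA was not shown to differ between sites.

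**Figure D3:**
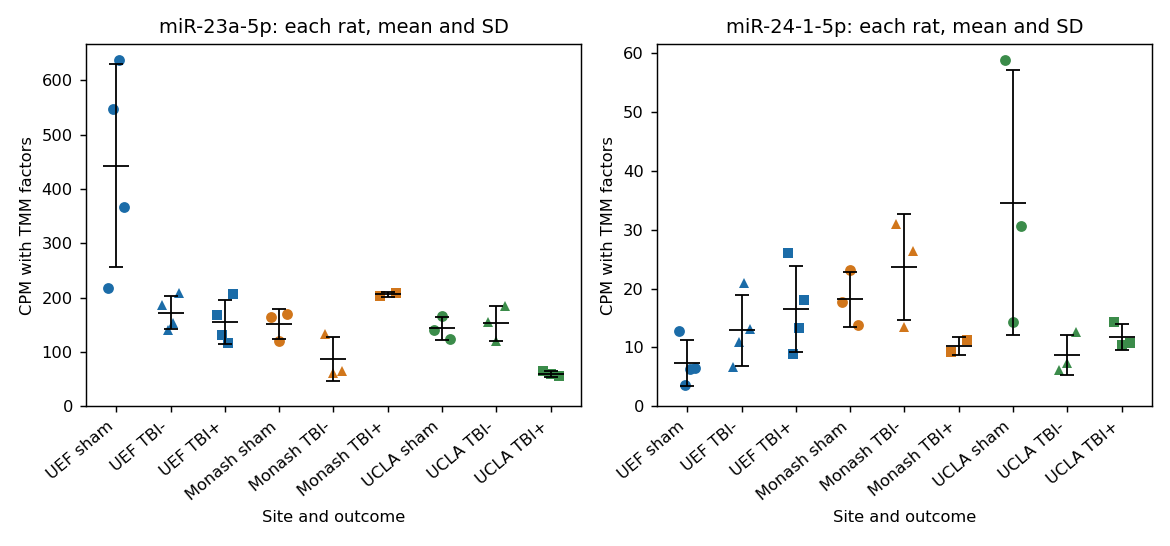
CPM with TMM factors of miR-23a-5p (left) and miR-24-1-5p (right) in each rat by site and outcome, with the mean and SD in black. The 4 UEF sham rats lie from 218 to 638 for miR-23a-5p, above the UEF TBI rats, and UCLA sham 1 (58.8) is the highest rat for miR-24-1-5p.

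The row of miR-24-2-5p, with the same seed and from the other cluster, did not follow. Its log2 fold change was 0.15 at UEF and -0.17 at UCLA (95% intervals -0.43 to 0.73 and -0.84 to 0.50), and its interaction had an adjusted p in edgeR of 0.849. There were 21.03 ± 11.1 counts of miR-24-1-5p per 100 of miR-24-2-5p in UEF sham rats (n = 4) and 36.9 ± 23.4 in UEF TBI rats (n = 8). At UCLA there were 100.3 ± 55.2 in sham (n = 3) and 36.9 ± 15.5 in TBI rats (n = 6). The sham means of these sites were farther apart than their TBI means.

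Between TBI+ and TBI- rats, 0 of 11 members were called by edgeR, as were 0 of 751 miRNAs (0%), with 0 members and 18 miRNAs at an unadjusted p under 0.05 and 0 calls by DESeq2. The lowest adjusted p of any miRNA was 0.998. Members' log2 fold changes lay from -0.16 (miR-24-2-5p) to 0.21 (miR-27a-3p), with a median of 0.04 against -0.00 over all tested, a median that scaling to miR-28-3p moved by 0.14. For miR-23a-3p the log2 fold change was 0.09, with a 95% interval from -0.41 to 0.60.

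Within sites the outcome groups were small, and for miR-23a-5p those of Monash and UCLA went opposite ways, a difference that was not tested. At UCLA miR-23a-5p had 64.8, 58.8 and 55.3 CPM in TBI+ rats and 155, 119.6 and 184 CPM in TBI- rats, and at Monash it had 203 and 209 CPM in TBI+ rats and 134, 61.9 and 65.9 CPM in TBI- rats. All TBI+ rats were thus below all TBI- rats at UCLA and above them at Monash, and plain CPM gave the same 2 orders. Such separation was common in these small groups: TBI+ and TBI- did not overlap for 5 of 11 members at UCLA, beside 32.5% of all miRNAs, for 7 of 11 at Monash, beside 37.2%, and for 0 of 11 at UEF, beside 0.666%. With plain CPM 2 members, miR-23a-5p and miR-24-2-5p, did not overlap at UCLA, beside 30.5% of all miRNAs under that scaling, and the same 2 at Monash, beside 40.5%. Opposite separation at Monash and UCLA was shared by 18% of all miRNAs (135 of 751; 17.8% with plain CPM). Total counts of the Monash TBI+ rats (1320300 and 1722453) were also below those of the Monash TBI- rats (2343627 to 3395469), and the part of depth was not tested.

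Between sites 1 of 11 members, miR-23a-5p, was called by edgeR in the test of the 3 sites together (adjusted p = 0.0254, 0.00748 to 0.445 over the alternatives), beside 111 of 751 miRNAs (14.8%). UEF against Monash gave 0 of 11 members, beside 75 of 751 (9.99%), with 1 member and 204 miRNAs at an unadjusted p under 0.05 and 109 miRNAs by DESeq2. UEF against UCLA gave 1 of 11, beside 70 of 751 (9.32%), and Monash against UCLA 0 of 11, beside 41 of 751 (5.46%), with 0 members and 148 miRNAs at an unadjusted p under 0.05 and 59 miRNAs by DESeq2. The members' median log2 fold change was 0.05 for UEF against Monash, 0.30 for UEF against UCLA and 0.11 for Monash against UCLA, beside 0.06, 0.07 and 0.00 over all tested. Plain CPM changed the split of calls over all miRNAs, from 33 higher and 42 lower to 9 and 24 for UEF against Monash, and from 39 and 31 to 35 and 42 for UEF against UCLA.

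miR-23a-5p had a median of 196 CPM at UEF (117 to 638, n = 12), 149 at Monash (61.9 to 209, n = 8) and 124 at UCLA (55.3 to 184, n = 9). UEF exceeded UCLA by 1.00 on the log2 scale (SE 0.28; adjusted p = 0.0220 in edgeR, 0.00266 to 0.328 over the alternatives), and was above it under all 6 scalings. The call was lost, with a log2 value of nearly the same size, without UCLA TBI+ 2 (0.90, adjusted p = 0.0564 in edgeR) or UCLA TBI+ 3 (0.89, 0.0546), and with plain CPM (0.86, 0.124). Sham rats alone gave 1.59 (adjusted p = 0.0431 in edgeR) and TBI rats alone 0.69 (0.328). For miR-24-1-5p the sham rats alone gave -2.23 for UEF against UCLA (adjusted p = 0.0125 in edgeR) and the TBI rats alone 0.57, not past the threshold. For the 3 sites together, miR-23a-5p was not called without UEF sham 2 (0.0593), UEF sham 3 (0.0559), UCLA sham 1 (0.0557), UCLA TBI+ 2 (0.0526) or UCLA TBI+ 3 (0.0519). UEF against Monash was called for it without Monash TBI+ 1 (0.0431) or Monash TBI+ 2 (0.0318).

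The 3p arms rose and fell together from rat to rat. Correlations of log2 CPM were computed for 15 pairs of 6 members (the 5 3p arms and miR-24-1-5p), with two-sided permutation tests of 100000 resamples and Benjamini-Hochberg adjustment over the 15. All 10 pairs of 3p arms were positive and past the threshold, with Pearson's r from 0.79 to 0.93, and 10 of 15 pairs were past it by Spearman's rho too. The highest was miR-23a-3p with its paralog miR-23b-3p from the other cluster (r = 0.93, permutation p = 1e-05, adjusted 1.5e-05; rho = 0.93, permutation p = 1e-05, adjusted 1.7e-05; n = 29), where 1e-05 is the smallest p the resamples can give. Without UEF sham 4 and UCLA TBI- 3, the 2 rats farthest from the median of miR-23a-3p, r was 0.92, and the sites alone gave 0.95 (UEF), 0.91 (Monash) and 0.95 (UCLA). These paralogs share 20 of 21 bases, and the part of reads that fit both was not tested.

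Pairs of unlike sequence were nearly as close. miR-23a-3p and miR-24-3p had r = 0.91 and rho = 0.91 (permutation p = 1e-05 for both, adjusted 1.5e-05 and 1.7e-05; 0.91 without the 2 farthest rats), with r = 0.93 at UEF, 0.89 at Monash and 0.92 at UCLA. Pairs within a cluster overlapped pairs across clusters: miR-23a-3p with miR-27a-3p gave r = 0.86 (rho = 0.85) and miR-23b-3p with miR-27b-3p 0.79 (rho = 0.73), while across clusters miR-23a-3p with miR-27b-3p gave 0.81 (rho = 0.80) and miR-23b-3p with miR-27a-3p 0.86 (rho = 0.85). Each had permutation p = 1e-05, but for the rho of miR-23b-3p with miR-27b-3p (3e-05), and adjusted values were at most 4.5e-05. The 10 pairs of 3p arms kept a positive r within each site, and 10 of 15 pairs were past the threshold in UEF rats, 7 in Monash rats and 10 in UCLA rats, or 12 over all rats with plain CPM. The median rho over these 10 pairs was 0.84, beside -0.00 over all 281625 pairs of tested miRNAs, and with plain CPM these medians were 0.64 and 0.30. Over all 55 pairs of the 11 members it was -0.03 (0.31 with plain CPM), near that of all miRNAs. Among the members, the closeness was thus that of the 3p arms. These arms are abundant, and no background of equally abundant miRNAs was drawn. Some miRNAs outside the members were about as close to a 3p arm, as the nearest miRNAs given below show. The closeness was thus not shown to be particular to the members.

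miR-24-1-5p stayed apart from the 3p arms. Its 5 pairs had r from -0.17 to 0.05, and its own hairpin's partner miR-24-3p gave r = 0.05 (permutation p = 0.780, adjusted 0.875) and rho = 0.11 (permutation p = 0.565, adjusted 0.707; n = 29). Without UEF sham 3 and UEF TBI- 1 r was 0.12, and the sites alone gave -0.18 (UEF), 0.76 (Monash) and 0.13 (UCLA). The scaling mattered here, since with plain CPM r was 0.60 (adjusted p = 0.00114).

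**Figure D4:**
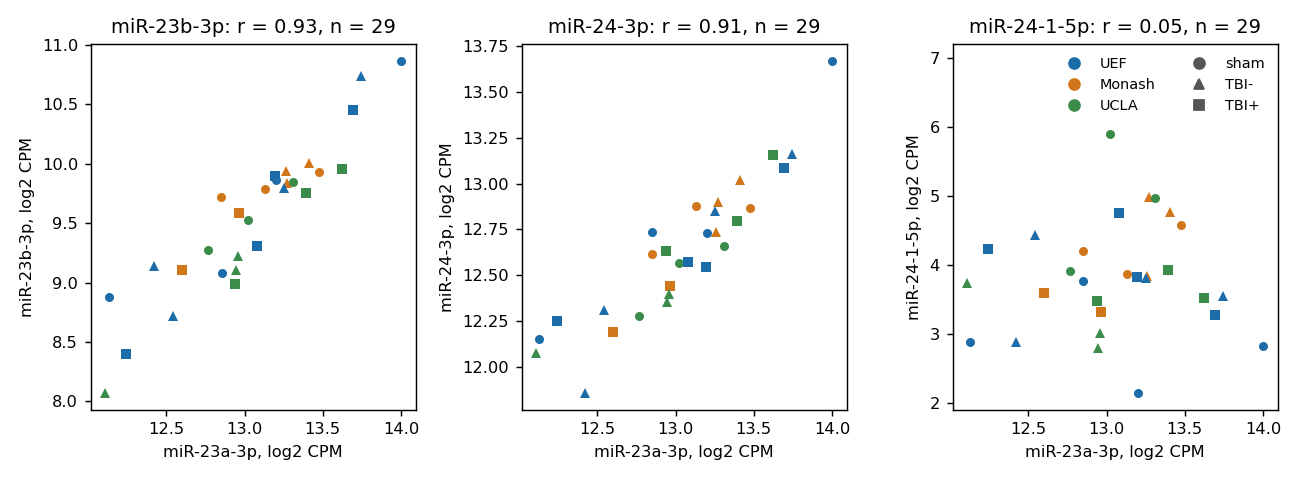
Log2 CPM (TMM) of miR-23b-3p, miR-24-3p and miR-24-1-5p against miR-23a-3p in 29 rats, coloured by site and shaped by outcome. The first 2 rise with miR-23a-3p (r = 0.93 and 0.91), and miR-24-1-5p does not (r = 0.05).

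The arms of a hairpin were compared in 5 further pairs, chosen after the other arms were seen in the table. miR-24-2-5p fell as miR-24-3p rose, with r = -0.65 (permutation p = 1.4e-04, adjusted over the 5 pairs 7e-04) and rho = -0.55 (permutation p = 0.00226, adjusted 0.00565; n = 29). It was -0.54 without UEF sham 4 and UEF TBI- 1, and -0.75 at UEF, -0.80 at Monash and -0.79 at UCLA. For miR-27b-5p and miR-27b-3p r was -0.54 (permutation p = 0.00219, adjusted 0.00547) and rho -0.56 (permutation p = 0.00164, adjusted 0.00565), with -0.46 without UEF sham 3 and UEF sham 4, and -0.74 at UEF, 0.02 at Monash and -0.38 at UCLA. These negative relations did not hold with plain CPM, where r was 0.34 and -0.09 and 0 of 5 pairs were past the threshold by permutation test. The arms of miR-23a had r = -0.21 (permutation p = 0.276, adjusted 0.345) and rho = -0.41 (permutation p = 0.0274, adjusted 0.0456), with r = -0.61 without UEF sham 2 and UEF sham 3, and 0.07 at UEF, -0.71 at Monash and -0.69 at UCLA. The pairs of miR-23b (r = -0.14) and miR-27a (r = 0.33) were not past the threshold.

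The miRNAs most like a member by Spearman's rho of log2 CPM over the 29 rats were, for miR-23a-3p, miR-23b-3p (0.93), miR-24-3p (0.91) and miR-99b-5p (0.88). For miR-24-3p they were miR-23a-3p, miR-146a-5p (0.87) and miR-27a-3p (0.85), and for miR-27a-3p they were miR-130a-3p (0.87), miR-24-3p and miR-23a-3p (0.85 each). miR-23b-3p was nearest to miR-23a-3p, miR-27a-3p (0.85) and miR-130a-3p (0.83). miR-27b-3p was the 3p arm with 0 members among its nearest 3, which were miR-30a-3p (0.87), miR-3587 (0.86) and miR-30a-5p (0.86). With plain CPM these 3 fell to 0.61, 0.39 and 0.64, miR-23b-3p with miR-130a-3p to 0.55, and miR-24-3p with miR-146a-5p to 0.61, while miR-23a-3p with miR-23b-3p stood at 0.90. miR-24-1-5p was nearest to miR-292-3p (0.59), miR-543-5p (0.54) and miR-320-5p (0.54), which rose to 0.72, 0.68 and 0.67 with plain CPM. Among the other 5p arms, miR-23a-5p was nearest to miR-615 (0.71), miR-490-3p (0.71) and miR-711 (0.69), or 0.79, 0.79 and 0.75 with plain CPM. The nearest to miR-24-2-5p was at 0.77, to miR-27a-5p at 0.73, to miR-27b-5p at 0.71 and to miR-23b-5p at 0.59, and 0 members stood among the nearest 3 of any 5p arm. These ranks describe the table and carry no test.

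The ratios between paralogous 3p arms were narrow. The log2 ratio of miR-23a-3p to miR-23b-3p counts was 3.51 ± 0.26 over the 29 rats (3.01 to 4.04), and that of miR-27b-3p to miR-27a-3p 0.93 ± 0.30 (0.37 to 1.64). At UCLA these ratios separated the groups: the first lay from 3.47 to 3.50 in the 3 sham rats and from 3.64 to 4.04 in the 6 TBI rats, while the second lay from 1.23 to 1.36 (sham) and from 0.70 to 0.95 (TBI). Of all 281625 pairs of tested miRNAs, 5.6% had a count ratio that separated the groups at UCLA, 2.79% at UEF and 2.5% at Monash. At UEF and Monash sham and TBI rats overlapped in both paralog ratios. No test was made of these ratios, which were looked at after the levels were seen.

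The use of miR-23a-3p as a haemolysis reference was described through the log2 ratio of miR-451-5p to miR-23a-3p counts. From qPCR of this pair the paper reports no haemolysis in these samples, though the haemoglobin absorbance of some was slightly above its limit. A ratio of sequencing counts is not on the qPCR scale and is not a reading of haemolysis. The count ratio ranged from -3.57 (UEF sham 3) to -0.87 (UEF TBI- 2), with a median of -2.38, so miR-451-5p was the lower count in all 29 rats. It was -2.15 ± 0.61 in TBI rats (n = 19) and -2.86 ± 0.62 in sham rats (n = 10). The difference of means was 0.71 over all sites, with 0.97 in UEF, -0.08 in Monash and 1.08 in UCLA. miR-451-5p itself had a log2 fold change of 0.68 between TBI and sham (adjusted p in edgeR = 0.514), and 0 of 14 red cell rows were called, though all 14 were above 0 with a median of 0.39.

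The choice of member as reference moved the zero of the ratio more than the gap between groups. miR-451-5p was above its reference in 0 of 29 rats with miR-24-3p, in 8 with miR-27b-3p, in 18 with miR-27a-3p and in 27 with miR-23b-3p. The TBI minus sham difference was 0.69 with miR-27a-3p, 0.71 with miR-23a-3p, 0.79 with miR-24-3p, 0.87 with miR-23b-3p and 0.97 with miR-27b-3p. At Monash the difference was at or below 0 with each, at -0.26, -0.08, -0.00, -0.01 and -0.16 in the same order. UEF sham 3 was the lowest rat with each of the 5 references. The highest was UEF TBI- 2 with miR-23a-3p or miR-24-3p and UCLA TBI- 1 with the other 3.

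**Figure D5:**
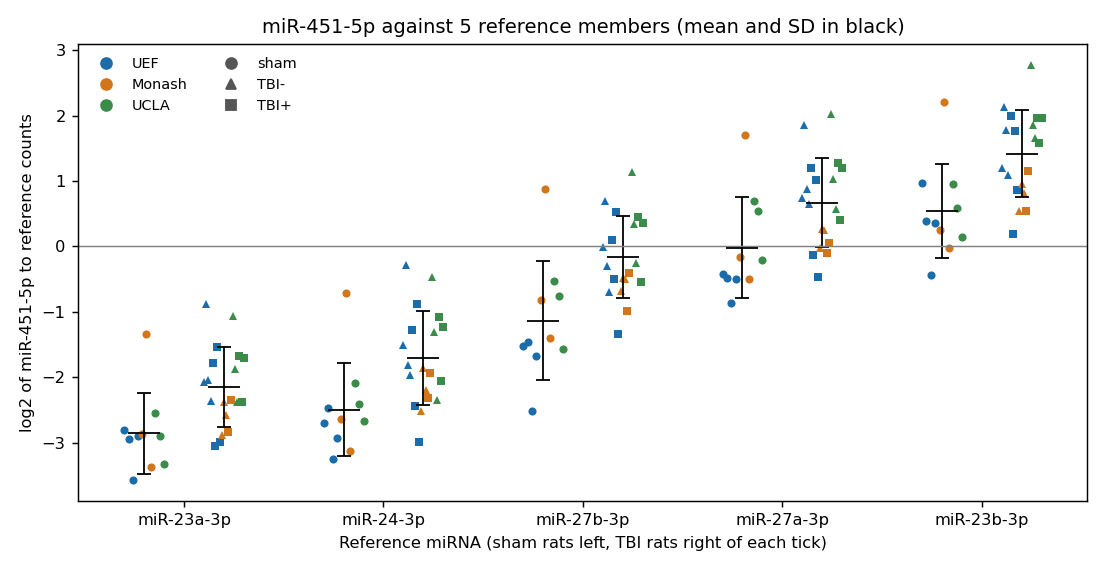
Log2 ratio of miR-451-5p counts to the counts of each of the 5 3p arms in each rat, sham on the left and TBI on the right of each tick, with the mean and SD in black. Over all sites TBI means lie above sham means with each reference, by 0.69 to 0.97, but at Monash they lie below, by -0.26 to -0.00, and the line at 0 is crossed by 0 rats with miR-23a-3p and by 27 with miR-23b-3p.

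Other lists give the makeup of the plasma beside which the members were read. White cell and platelet rows (6, led by miR-223-3p), vessel wall rows (7, led by miR-143-3p) and muscle rows (12, led by miR-206-3p) were compared between TBI and sham. Over all sites edgeR gave them 0 calls, while 3 of 8 liver rows were called lower. The vessel wall list had rows for miR-126a and miR-126b, and lacked only the bare stem miR-126. Between TBI and sham, 0 of 7 vessel wall rows were above 0 (median log2 fold change -0.51). Above 0 were 6 of 6 white cell and platelet rows (0.25) and 6 of 12 muscle rows (-0.03). For UEF against UCLA, 7 liver, 4 vessel wall and 3 muscle rows were called higher at UEF. The 4 vessel wall rows were arms of miR-143 and miR-145, and 5 of the 7 vessel wall rows were above 0. In the same contrast 1 red cell and 1 white cell row were called lower. White cell, vessel wall and muscle rows at a count of 0 in any rat numbered 0, 1 and 4. Their part in the values of the members was not tested.

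Several limits bear on these values. Groups within a site held 2 to 4 rats (8, 5 and 6 where TBI- and TBI+ were joined), each rat gave 1 library at 1 time, and sites differ in both their rats and their handling, which cannot be told apart. The calls on miR-23a-5p and miR-24-1-5p changed with the scaling or with single rats. The 5p arms other than miR-23a-5p had few counts. Reads shared by the miR-23 and the miR-27 paralogs could not be followed from counts, nor the cells that released a miRNA. Tissue levels and targets were not measured.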

How the data were processed

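Plasma small RNA of 29 rats was measured, 1 library per rat. Per the labels and the study's methods, the authors trimmed reads with cutadapt, aligned them to Rnor_6.0 with Bowtie, annotated them with miRBase and deposited the count of each miRNA, not normalized. Whether reads of 1 unique molecular identifier were merged is not stated. Counts were tested in edgeR 4.0.16 (limma 3.58.1, R 4.3.3): filterByExpr (minimum count 10), TMM factors, quasi-likelihood F test with site and group in the model, and Benjamini-Hochberg adjustment over 751 miRNAs (threshold 0.05). log2 CPM had a prior count of 2, and log2 count ratios an offset of 0.5 on both sides (counts per 100 had none). Correlations used Python 3.11.15, numpy 2.4.6, pandas 2.3.3 and scipy 1.17.1, with 100000 resamples, or exact permutation for Monash and UCLA, and figures matplotlib 3.10.9. The steps were tested on simulated data. Members, lists and tests were chosen with earlier results of these data known. Named miRNAs are the members, the 3 nearest to each by rho, the most abundant of each marker list and rows with a member's seed. Also named are miR-28-3p, miR-451-5p, miR-16-5p and stems of the marker lists. Alternatives were DESeq2 1.42.0, RLE, upper-quartile, no and miR-28-3p scaling, looser and stricter count filters, a replicate block, a miR-451-5p covariate, other sets of rats and each rat left out in turn. Plain CPM without UEF sham 3 was added after seeing the data.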

Additional observations from a re-analysis of the deposited data

Results flagged for a closer look

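Some rats lay far from the rest of their group, with a gap to the next rat that was a large share of the group's range. Of 88 groups checked, 6 were past the limit, in 4 rats. For independent and normally spread values, chance alone does this in about 1 in 20 groups, or 4.4 here. These groups share rats and the 3p arms vary together, so that rate is only a rough guide. UEF sham 3 was the highest sham rat for miR-23b-3p (1867 CPM, next 977), miR-24-3p (13033, next 7522) and miR-27b-3p (7877, next 3357). With plain CPM it was not the highest for any of the 3 (622, 4344 and 2625 CPM). UEF TBI- 2 was the highest TBI- rat for miR-27a-5p (121 CPM, next 40.2; 78.0 with plain CPM). UEF TBI+ 4 was the lowest UEF TBI+ rat for miR-27b-3p (1550.0 CPM, next 2238), and with plain CPM it was above UEF TBI+ 3 (2732 and 2446). Monash TBI+ 2 was the lowest Monash rat for miR-23b-3p (550.5 CPM, next 767), and with plain CPM it was not (763, against 728 in Monash sham 2).

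Other members stood out because groups moved in opposite directions at different sites. The injury contrast of miR-24-1-5p differed between sites by a test of the difference (edgeR quasi-likelihood F test, Benjamini-Hochberg adjusted p = 0.0464), and the report gives the rats on which it depends. For 4 members every TBI+ rat lay on 1 side of every TBI- rat at Monash (2 and 3 rats) and on the other side at UCLA (3 and 3 rats), and this difference between sites was not tested. Of all 751 miRNAs, 135 (18%) did the same, or 134 (17.8%) with plain CPM, where 2 members did. The difference of mean log2 CPM, TBI+ minus TBI-, was 1.33 at Monash and -1.33 at UCLA for miR-23a-5p, and 0.70 and -0.53 for miR-24-2-5p. It was -0.57 and 0.59 for miR-24-3p, and -0.32 and 0.75 for miR-27a-3p. With plain CPM the values were 1.76 and -1.68 for miR-23a-5p and 1.13 and -0.88 for miR-24-2-5p, while miR-24-3p kept its signs at -0.13 and 0.23 and miR-27a-3p had 0.11 and 0.39, the same sign at both sites.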

How the results depend on the processing

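Of 4454 values of members under the alternatives, 4386 kept their side of the threshold and 0 called values reversed, with 47 losing and 21 gaining a call, in 13 of 110 results. Another 291 changed sign with no call on either side. Most results were not called as reported, so most values had no call to lose. Each reported call was lost in some settings. For miR-23a-5p these were 2 of 29 fits without 1 rat and 3 of 10 other settings at UEF. They were 2 of 29 and 5 of 12 for UEF against UCLA, and 5 of 29 and 5 of 12 for the 3 sites together. The interaction of miR-24-1-5p was lost in 23 of 29 and 2 of 9. Counts of calls are by edgeR after Benjamini-Hochberg adjustment over all miRNAs, with members in brackets, and those named here moved by over 1.5 times. The cause was not tested. Settings not named moved a count by less. Requiring 10 counts in every rat removed miR-24-1-5p, which then had no value. Leaving out a Monash TBI+ rat left 1 in that group, taken to vary like the others.

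For TBI against sham (10 calls, members 0), DESeq2 gave 25 (1), at least 10 counts in every rat 17 (1), the miR-451-5p covariate 6, no UEF rats 0, no Monash rats 21 (1), and plain CPM without UEF sham 3, chosen after seeing the data, 1. At UEF (29, members 1), DESeq2 gave 49, plain CPM 48, the covariate 88 (3) and the added setting 14 (0). At Monash (0) DESeq2 gave 5. At UCLA (2, members 0), DESeq2 gave 7 (1), RLE 4 (1), plain CPM 9 (1), miR-28-3p scaling 1 and the added setting 15 (1). For the injury contrast by site (8, members 1), DESeq2 gave 17, RLE 2 (0), upper-quartile factors 5, plain CPM 15 and at least 10 counts 3 (0).

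For the 3 sites together (111, members 1), sham rats alone gave 66 (2) and TBI rats alone 40 (0), while plain CPM, miR-28-3p scaling and the added setting left 0 members. UEF against UCLA (70, members 1) gave 36 (2) in sham and 40 (0) in TBI rats, with 0 members under the same 3 scalings. UEF against Monash (75, members 0) gave 46 with upper-quartile factors, 33 with plain CPM, 18 with miR-28-3p scaling, 130 (1) with the covariate, 35 in sham rats, 0 in TBI rats and 28 with the added setting. Monash against UCLA (41) gave 21 in sham and 23 in TBI rats.

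With a replicate block, TBI against sham gave 6, the injury contrast by site 0 (members 0), UEF against Monash 31 and UEF against UCLA 46 (members 0), and the 3 sites together gave 0 members. Rats with the same number were not alike: the mean correlation of their deviations was -0.0164, against 0.00601 for other numbers, 21 of 103 pairs were over 0.1, and 4 of 29 rats were closest to their own number.

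With 1 rat left out, calls ranged from 3 (without UEF sham 2) to 19 (without Monash sham 2) for TBI against sham, 0 to 0 for TBI+ against TBI-, 95 to 154 for the 3 sites, 39 (Monash TBI- 3) to 117 (Monash TBI+ 2) for UEF against Monash, 60 to 77 for UEF against UCLA and 25 (Monash sham 3) to 59 (UCLA TBI+ 1) for Monash against UCLA. By site they ranged from 0 (UEF sham 3) to 10, at UEF from 14 (UEF sham 3) to 56 (UEF sham 1), at Monash from 0 to 4 (Monash TBI- 3) and at UCLA from 1 (UCLA sham 1) to 6 (UCLA sham 2). Members called ranged from 0 to 2 at UEF, from 0 to 0 for TBI+ against TBI-, Monash against UCLA and TBI at Monash, and from 0 to 1 for each other contrast. Depth limits the 5p arms most, as miR-24-1-5p had 9 to 136 counts.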
